A study of Mus musculus with 17 samples.

Results

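The 7 genes Il1rl1, Il1rap, Il17rb, Crlf2, Ptgdr2, Vipr1 and Myd88 encode receptors, or receptor partners, through which type 2 helper T (Th2) cells sense alarmins, prostaglandin D2 and a neuropeptide. They were taken by gene symbol from all 17 expression tables, and all 7 were found among the 24537 genes of each table. RNA of sorted mouse T cells had been sequenced by Smart-seq2, which suits small samples, in a study whose title ties Notch signalling to the exit of Th2 cells from the lymph node. Airway cells (3 libraries) came from bronchoalveolar lavage of Gata3-YFP reporter mice, called GATIR, which report expression of the Th2 regulator gene Gata3 by yellow fluorescence. Reporter cells of the mediastinal lymph node, which drains the lung, gave 3 libraries. Both reporter groups are labelled WT (wild type) in their sample titles. The lymph node also gave OTII cells labelled Notch1/2-KO (4 libraries) and OTII cells labelled WT in their titles, called wild type here (3 libraries). OTII mice carry a transgenic T cell receptor for ovalbumin. Th2 cultures of both OTII genotypes (2 libraries each) were made from naive T cells of the spleen, kept for 7 days on plates coated with anti-CD3/CD28, with antibodies to IL-12/23 and IFN-γ and with added IL-4. All mice that gave airway or lymph node cells had an allergen-driven airway inflammation, so no group comes from cells of uninflamed mice sorted without culture. The labels give neither the Cre line that removes Notch1 and Notch2, nor the ages of the mice, nor whether replicates are separate animals, nor the antibodies of the sort, so it is not known here whether 1 of these receptors served to choose cells. The p-values therefore measure only the spread between these libraries.

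Epithelial cells release the alarmins IL-33, IL-25 and TSLP when they are damaged or meet an allergen, and Th2 cells and group 2 innate lymphoid cells answer them with type 2 cytokines. Il1rl1 encodes ST2, the IL-33 receptor, which pairs with the product of Il1rap and signals through the adaptor that Myd88 encodes. Il17rb encodes the subunit that binds IL-25 and pairs with the product of Il17ra, and Crlf2 encodes the TSLP receptor chain that pairs with the IL-7 receptor α chain, the product of Il7r. Ptgdr2 encodes CRTH2, a receptor for prostaglandin D2 that draws Th2 cells to sites of allergy, and Vipr1 encodes a receptor for vasoactive intestinal peptide.

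Il1rl1 (NM_001025602, chr1:40439629-40465414, plus strand, mm10) is listed by RefSeq (GRCm38.p6) with 2 start sites. The 250 bases before each are shown because Il1rl1 had the widest span of levels of the 7 genes, and those of Il17rb (NM_019583, chr14:29996168-30008896, minus strand) because it moved the other way in the airway comparison. Those of Vipr1 (NM_011703, chr9:121642716-121672954, plus strand) are shown because the knockout label went with different changes of it in lymph node and culture. Capitals mark the core of GATA factor sites (GATAA or its reverse complement TTATC) and that of sites of RBPJ, the DNA-binding partner of Notch (TGGGAA or TTCCCA).
Il1rl1 distal, chr1:40429320-40429569, plus strand: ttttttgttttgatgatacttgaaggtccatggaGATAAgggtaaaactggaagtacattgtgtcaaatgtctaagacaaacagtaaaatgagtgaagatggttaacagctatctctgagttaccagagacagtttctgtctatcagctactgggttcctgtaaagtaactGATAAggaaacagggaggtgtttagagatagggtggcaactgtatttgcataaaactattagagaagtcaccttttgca
Il1rl1 proximal, chr1:40439379-40439628, plus strand: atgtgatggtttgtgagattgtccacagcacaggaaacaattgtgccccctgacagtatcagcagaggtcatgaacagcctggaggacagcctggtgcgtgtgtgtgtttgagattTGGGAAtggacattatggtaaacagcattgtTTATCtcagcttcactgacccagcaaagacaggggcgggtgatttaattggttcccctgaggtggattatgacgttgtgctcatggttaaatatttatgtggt
Il17rb, chr14:30008897-30009146, minus strand: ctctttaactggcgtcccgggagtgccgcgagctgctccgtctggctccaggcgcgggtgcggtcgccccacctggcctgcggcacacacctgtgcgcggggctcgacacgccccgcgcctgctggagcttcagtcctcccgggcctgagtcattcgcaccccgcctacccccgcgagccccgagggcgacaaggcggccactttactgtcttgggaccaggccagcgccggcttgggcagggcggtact
Vipr1, chr9:121642466-121642715, plus strand: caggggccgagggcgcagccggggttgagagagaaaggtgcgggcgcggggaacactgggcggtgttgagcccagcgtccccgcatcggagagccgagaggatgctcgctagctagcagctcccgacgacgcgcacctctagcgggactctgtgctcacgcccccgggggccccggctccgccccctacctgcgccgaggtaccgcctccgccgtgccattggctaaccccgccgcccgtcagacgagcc
The distal Il1rl1 sequence held 2 GATA cores and no RBPJ core, and the proximal one held 1 of each. The windows of Il17rb and Vipr1 held neither. Among all 32851 promoter windows of this length, 22.6% held the GATA core and 21.6% the RBPJ core, so a match is common. The same windows of Crlf2 and Il1rap held 1 RBPJ core each, and those of Myd88 and Ptgdr2 held neither. The base composition varied among the members. GC content was 37.6% and 46.4% in the distal and proximal Il1rl1 windows, 72.0% in Il17rb and 72.8% in Vipr1. The median over all windows was 52.4%. A high GC content was not particular to Il17rb and Vipr1: it was 71.6% in Crlf2 and 74.4% in Il1rap. It was 51.2% in Myd88 and 55.2% in Ptgdr2. The Il17rb and Vipr1 windows held 27 and 30 CpG pairs, and the Il1rl1 windows 0 and 3. Those of Crlf2 and Il1rap held 24 and 30, and those of Myd88 and Ptgdr2 9 and 4. A link of base composition to the levels was not tested. The tables have 1 value per gene and do not tell which start site was used, nor the membrane form of ST2 from its soluble form.

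Libraries held 16.3 to 27.5 M (megareads), as read back from the steps of the deposited RPKM values. Values are scaled RPKM (reads per kilobase of transcript, relative to library size and scaled between libraries), and tests used limma on log2(scaled RPKM + 1), a scale that understates the change of low genes. In lymph node OTII cells Notch1 fell to 10.9 ± 2.31 (SD, n = 4) with the knockout label, against 47.9 ± 1.47 (n = 3) in wild type, and Notch2 rose to 16.2 ± 2.09, against 7.88 ± 0.305. A value for the whole transcript cannot show that an exon is missing, and these cells are called knockout-labelled throughout. Gata3 ranged from 354 to 481 in airway and 340 to 442 in lymph node reporter cells, but from 35.3 to 45.0 in knockout-labelled and 51.8 to 62.2 in wild type lymph node OTII cells. In culture it ranged from 85.3 to 87.2 with the knockout label and 55.2 to 70.0 in wild type. The T cell gene Cd3e was at 110 or more in every library. No test compared reporter with OTII libraries, since the 2 kinds of mice and their sorts cannot be told apart.

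**Figure D1:**
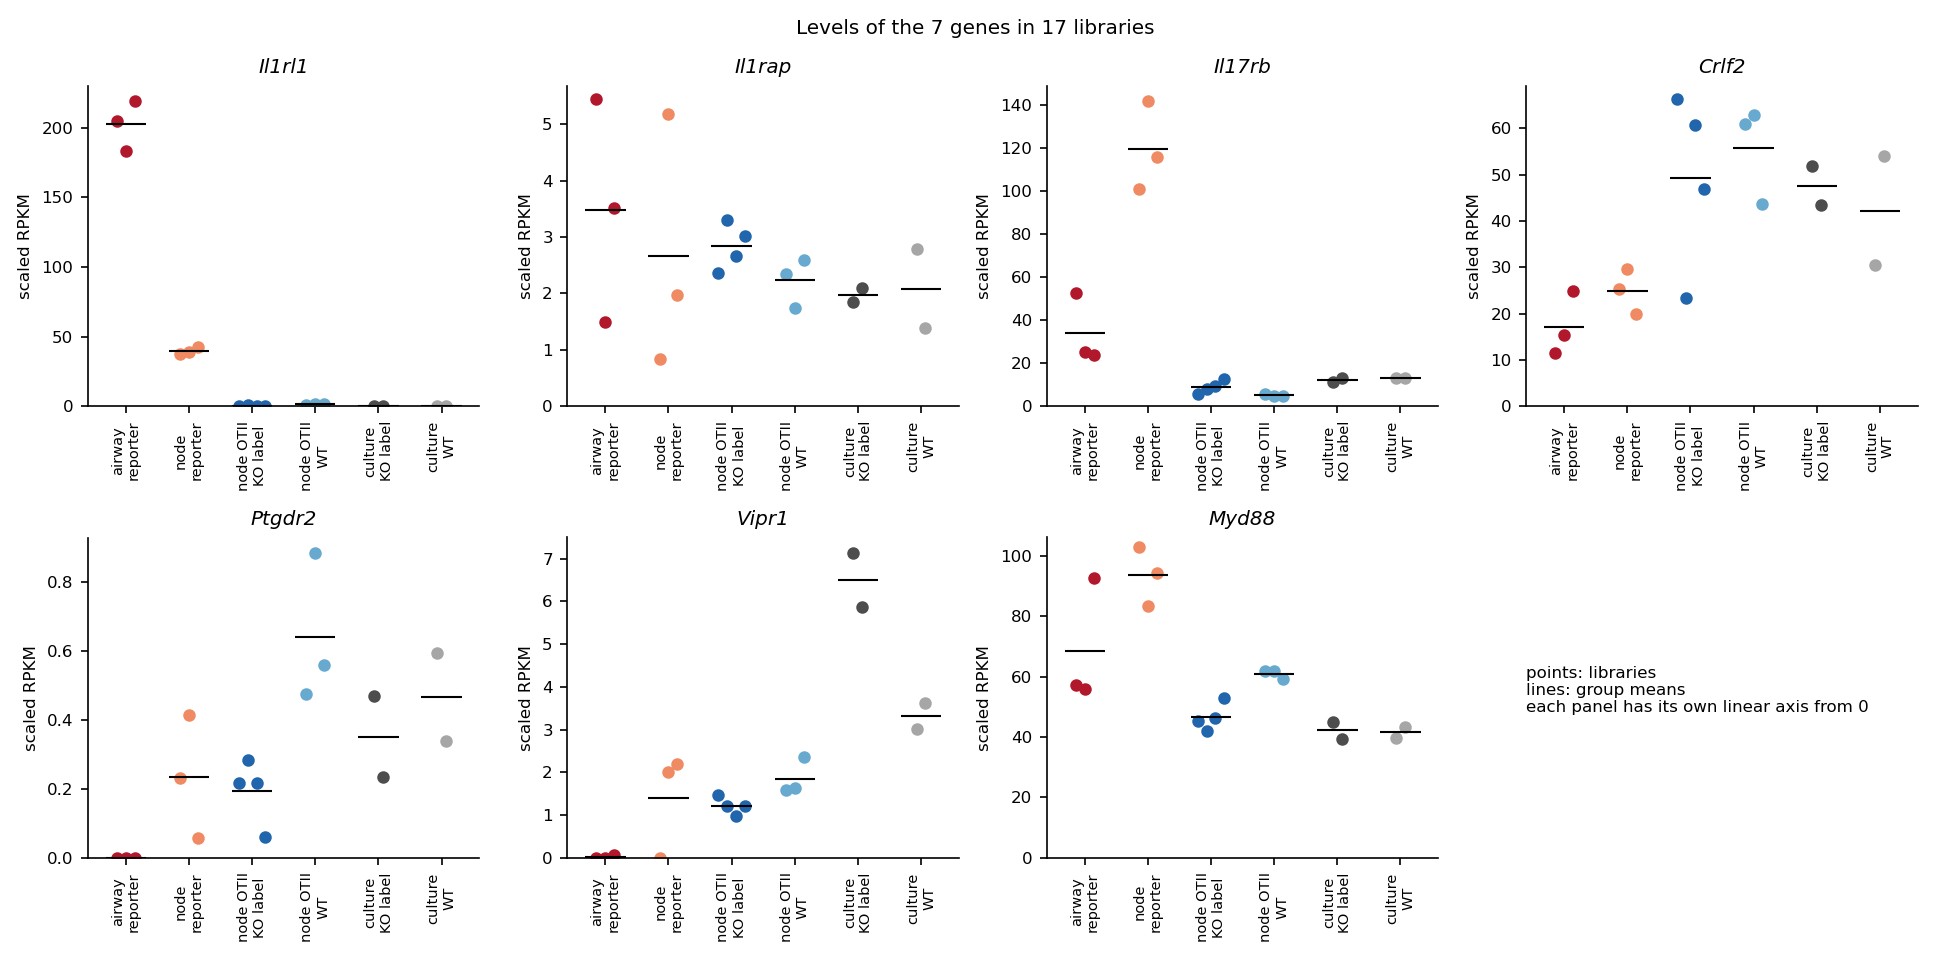
Scaled RPKM of each gene (y axis, linear from 0, a separate scale per panel) in each of the 17 libraries by group (x axis); points are libraries and lines are group means. Il1rl1 lies at 183 to 219 in the airway libraries and at 1.89 or lower in every OTII library.

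Il1rl1 was the gene of the 7 that rose in the airway. It stood at 205, 183 and 219 in the airway libraries, against 37.5, 39.1 and 42.2 in the lymph node reporter libraries. Every airway library was above every lymph node library, and the group means were 203 ± 18.1 and 39.6 ± 2.36 (SD, n = 3 each), a 5.11-fold difference. The log2 fold change was 2.32 (SE 0.17, adjusted p = 2.85e-04 by limma with Benjamini-Hochberg adjustment), and the call held when each of the 6 libraries was dropped in turn (adjusted p at most 0.0053). The mean of Il1rl1 in the airway exceeded that of 98.8% of all genes.

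Il17rb went the other way. It stood at 52.4, 25.0 and 24.0 in the airway libraries, against 101, 142 and 116 in the lymph node reporter libraries. The groups did not overlap, and the airway mean of 33.8 ± 16.1 was 0.283 times the lymph node mean of 120 ± 20.5 (SD, n = 3 each). The log2 fold change was -1.87 (SE 0.31, limma adjusted p = 0.0109). It was no longer called when any 1 of the lymph node libraries was dropped (adjusted p up to 0.0652) or when no filter on low values was used (adjusted p = 0.0567). Among all 10111 genes tested, 300 (2.97%) rose and 233 (2.3%) fell, beside 1 riser and 1 faller among 5 tested members. The members were chosen with earlier results of these data known, so the shares are no test of them. The Th2 cytokine gene Il4 also fell, to 147 in airway cells, against 474 in lymph node reporter cells (log2 fold change -1.70, SE 0.29, limma adjusted p = 0.0123, and up to 0.0718 without lymph node library 2 or 3). Gata3 averaged 417 in airway and 404 in lymph node reporter cells (log2 fold change 0.045, SE 0.16, limma adjusted p = 0.91). Their part in the receptor results was not tested.

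**Figure D2:**
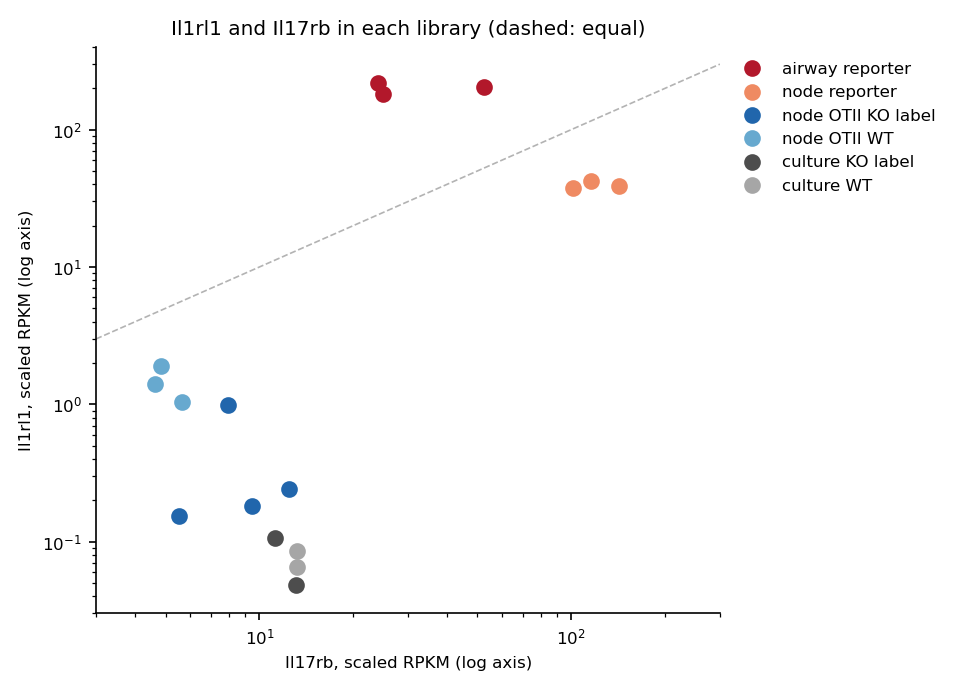
Il1rl1 (y axis) against Il17rb (x axis), both as scaled RPKM on log axes, with 1 point per library coloured by group and a dashed line where both are equal. The 3 airway libraries lie above the line and the 3 lymph node reporter libraries below it.

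The 2 receptor genes therefore changed places. Within a library the level of Il1rl1 was 3.91 to 9.12 times that of Il17rb in the airway and 0.276 to 0.371 times in the lymph node of reporter mice. In lymph node OTII cells the ratio was 0.0194 to 0.124 with the knockout label and 0.185 to 0.391 in wild type. In culture it stayed under 0.01 in all 4 libraries (0.00368 to 0.00952 with the knockout label and 0.00497 to 0.00649 in wild type).

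Il1rap, the partner of ST2, did not follow Il1rl1. It stood at 5.45, 1.49 and 3.51 in the airway libraries, against 0.84, 5.19 and 1.98 in the lymph node reporter libraries, and the groups overlapped (log2 fold change 0.36, SE 0.63, limma adjusted p = 0.805). Il1rl1 exceeded Il1rap 37.6- to 123-fold in airway libraries and 7.53- to 44.7-fold in lymph node reporter libraries. Il1rap lay between 0.84 and 5.45 in all 17 libraries, and no neighbouring groups in the order of its means were without overlap. Up to 4.86% of its annotated exon bases overlap an antisense gene, whose reads cannot be told apart where strand is not used, and the strand setting is not given in the sources used here.

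The other members tested in the airway were lower there without passing. Crlf2 stood at 11.4, 15.4 and 24.8 in the airway libraries, against 25.2, 29.7 and 19.9 in the lymph node reporter libraries (log2 fold change -0.56, SE 0.35, limma adjusted p = 0.426). Myd88 stood at 57.4, 55.8 and 92.7, against 103, 83.5 and 94.4 (log2 fold change -0.48, SE 0.23, limma adjusted p = 0.295). In both genes 1 airway library reached into the lymph node range.

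Ptgdr2 and Vipr1 were too low in reporter cells to be tested. Ptgdr2 was listed at 0 in all 3 airway libraries and had 13, 21 and 3 reads in the lymph node reporter libraries. Vipr1 had 0, 0 and 6 reads in the airway libraries, against 0, 189 and 216 in the lymph node reporter libraries. Zeros also occurred among widely expressed genes in the airway: the OTII libraries had 2898 genes at 20 or above throughout, of which the airway libraries listed 30, 41 and 2 at 0 and the lymph node reporter libraries none.

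**Figure D3:**
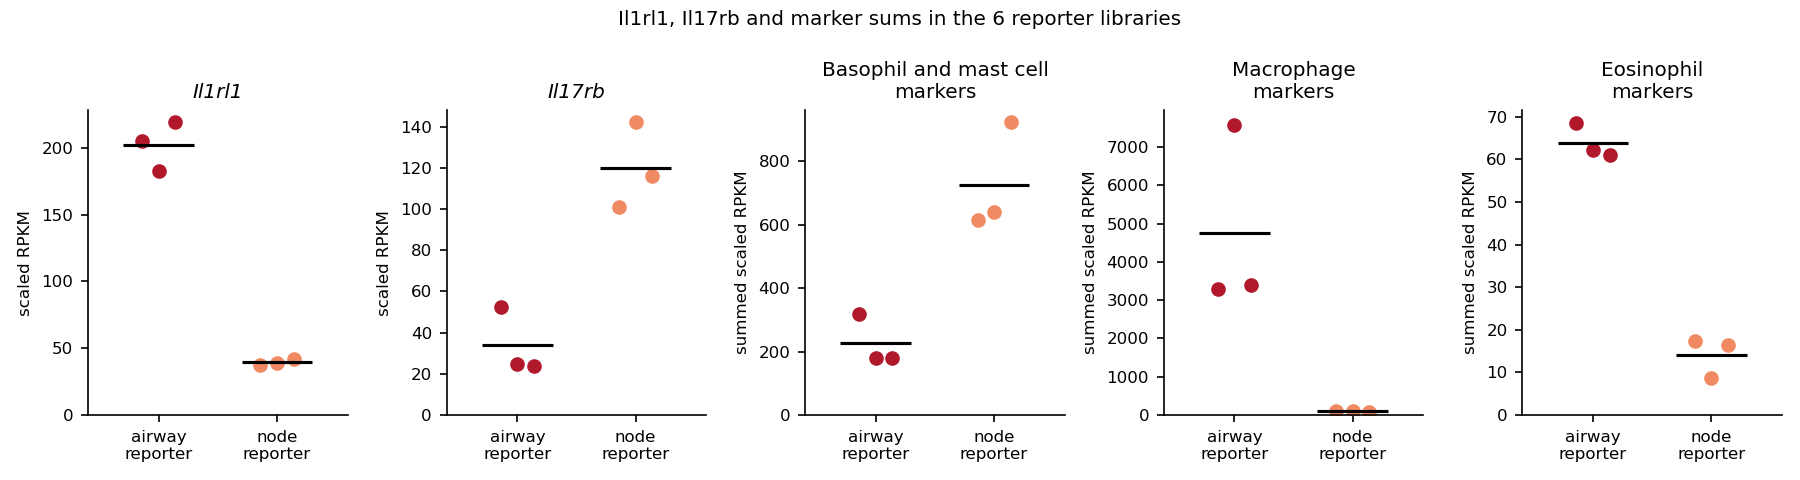
Scaled RPKM of Il1rl1 and Il17rb and summed scaled RPKM of the marker genes of 3 other cell types (y axes, linear from 0) in the 3 airway and 3 lymph node reporter libraries (x axis); points are libraries and lines are means. Basophil and mast cell markers are lower in the airway like Il17rb, and macrophage markers are higher in the airway like Il1rl1.

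Markers of other cells moved with the same contrast. The 11 basophil and mast cell markers summed to 179 to 319 in airway and 613 to 923 in lymph node reporter libraries; 3 of the 5 tested fell, and Fcer1a, Ms4a2, Gata2 and Tpsb2 were at 0 in all 6 libraries. Basophils and mast cells can express Il1rl1 as well. The 8 macrophage markers summed to 3290 to 7580 in airway libraries and 69.9 to 116 in lymph node reporter libraries, and all 5 tested rose. The 6 eosinophil markers summed to 60.9 to 68.5 and 8.78 to 17.3, with Epx at 0 in all 6 libraries. The 4 regulatory T cell markers summed to 416 to 484 in airway and 280 to 377 in lymph node reporter libraries, though none was called. Most of that sum was Ctla4, with means of 372 in airway and 261 in lymph node reporter libraries. Foxp3 averaged 23 and 19, while Il2ra (43.4 and 58.1) and Ikzf2 (2.06 and 4.18) were lower in the airway. The general T cell markers summed to 4400 to 4960 in airway and 3670 to 3930 in lymph node reporter libraries. Of the 6 tested, 1 rose and 0 fell. Cd2, Lck and Cd3g had higher means in the airway, and Lat was about level (770 against 765). Cd3e lay lower in the airway, at 110 to 164 against 195 to 238, and Cd4 averaged 418 against 502. The part of all these markers in the changes of Il1rl1 and Il17rb was not tested. In bulk samples fewer cells of a type and less RNA per cell cannot be told apart.

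Of 50 further genes of these pathways, 36 were tested in the airway comparison, and 1 rose, 1 fell and 34 did not pass. Their median log2 fold change was 0.20, against -0.07 over all genes tested. Il7r, which encodes the partner of the TSLP receptor chain and also serves the IL-7 receptor, stood at 149, 143 and 165 in airway libraries, against 52.6, 40.3 and 49.6 in lymph node reporter libraries (log2 fold change 1.67, SE 0.18, limma adjusted p = 0.00171). Nmur1, a neuromedin U receptor gene, fell to 64.3, 68.2 and 31.0, against 124, 154 and 130 (log2 fold change -1.38, SE 0.29, limma adjusted p = 0.0299), a call lost without any 1 of the lymph node libraries (highest adjusted p = 0.136), with voom and with a pseudocount of 0.1. So of the TSLP receptor pair Il7r rose and Crlf2 did not pass. The alarmin genes Il33 and Il25 were listed at 0 in all 17 libraries and Tslp stayed under 0.1.

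Knockout-labelled against wild type OTII cells of the lymph node gave 2 members that fell, Il1rl1 and Myd88, and none that rose. Il1rl1 stood at 0.154, 0.983, 0.183 and 0.241 in knockout-labelled libraries, against 1.04, 1.40 and 1.89 in wild type. These levels rested on 17, 132, 22 and 24 reads with the knockout label and on 101, 158 and 217 reads in wild type. All 4 knockout-labelled libraries were below all wild type libraries, but replicate 2 came within 0.06 of the lowest of them. The log2 fold change was -0.84 (SE 0.22, limma adjusted p = 0.0276), and the ratio of the means 0.390 and 1.44 was 0.270. Replicate 2 holds much of that mean: without it, a value added after it was seen, the knockout-labelled mean was 0.193 ± 0.0445 (SD, n = 3) and the ratio 0.134. With a pseudocount of 0.1 the log2 fold change was -1.90, and on the reads with limma's voom -2.23, both past the threshold. The call did not hold when wild type library 2 or 3 or knockout-labelled library 1, 3 or 4 was dropped (adjusted p up to 0.117).

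Myd88 fell by a smaller step. It stood at 45.3, 41.9, 46.3 and 52.8 in knockout-labelled libraries, against 62.0, 61.8 and 59.4 in wild type, with no overlap. The group means were 46.6 ± 4.57 (SD, n = 4) and 61.1 ± 1.48 (n = 3), and the log2 fold change was -0.39 (SE 0.09, limma adjusted p = 0.0165). The call was lost without any 1 of the wild type libraries (highest adjusted p = 0.0735). Of the annotated exon bases of Myd88, 11.3% overlap exons of Acaa1a. Beside these falls, Gata3 averaged 40.3 in knockout-labelled and 56.0 in wild type cells (log2 fold change -0.47, SE 0.11, limma adjusted p = 0.0169). Il4 averaged 19.7 in knockout-labelled and 44.7 in wild type cells (log2 fold change -1.24, SE 0.30, limma adjusted p = 0.0207). Both calls depended on single libraries: Gata3 lost it without wild type 2 or knockout-labelled 4 (adjusted p up to 0.0853), and Il4 without any wild type library or knockout-labelled 3 (up to 0.0868). Their part in the Il1rl1 and Myd88 results was not tested. Over all 10869 genes tested in this comparison 1130 (10.4%) rose and 835 (7.68%) fell, against 0 and 2 of 6 tested members.

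The IL-25 receptor gene did not follow Il1rl1 here either. Il17rb stood at 5.52, 7.94, 9.45 and 12.4 in knockout-labelled libraries, against 5.63, 4.61 and 4.83 in wild type, and the lowest knockout-labelled library lay within the wild type range. Its log2 fold change, 0.66 (SE 0.21, limma adjusted p = 0.0622), did not pass. It did pass without knockout-labelled replicate 1 (adjusted p = 0.00995) and in the fit of all 11 OTII libraries (adjusted p = 0.0383), and not in the other alternatives (adjusted p up to 0.217). Its partner gene Il17ra fell to 38.3, 40, 36.7 and 34.5, against 69.6, 70.5 and 66.2 (log2 fold change -0.86, SE 0.08, limma adjusted p = 1.63e-04), and passed with each library dropped in turn.

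Vipr1 and its relative Vipr2, which binds the same peptide, differed. Vipr1 stood at 1.47, 1.20, 0.969 and 1.22 in knockout-labelled libraries, against 1.58, 1.62 and 2.35 in wild type. Its groups did not overlap, but its log2 fold change, -0.36 (SE 0.14, limma adjusted p = 0.113), did not pass. Vipr2 rose to 2.32, 2.10, 1.71 and 1.98 with the knockout label, against 0.162, 0.249 and 0.191 in wild type (log2 fold change 1.33, SE 0.12, limma adjusted p = 1.66e-04; 3.29 with voom). The level of Vipr1 was 0.568 to 0.635 times that of Vipr2 in knockout-labelled libraries and 6.49 to 12.3 times in wild type.

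Crlf2 and Il1rap gave no call in this comparison. Crlf2 stood at 66.4, 23.3, 60.7 and 46.8 in knockout-labelled libraries, against 61.0, 62.8 and 43.7 in wild type (log2 fold change -0.26, SE 0.32, limma adjusted p = 0.623), and replicate 2 of the knockout-labelled libraries was the lowest. Il1rap stood at 2.37, 3.30, 2.67 and 3.02, against 2.35, 1.75 and 2.59 (log2 fold change 0.25, SE 0.14, limma adjusted p = 0.231). Both pairs of groups overlapped.

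Ptgdr2 was below the filter on low values. It had 12, 19, 13 and 3 reads in knockout-labelled libraries, against 23, 50 and 32 in wild type, or 0.194 ± 0.0949 (SD, n = 4) and 0.640 ± 0.217 (n = 3) as scaled RPKM. Without the filter its log2 fold change was -0.45 (limma adjusted p = 0.0287). Of its annotated exon bases 39.0% overlap exons of Ccdc86, so reads of the 2 genes cannot be told apart there without strand. No library of the series had Ptgdr2 at 1 or more.

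**Figure D4:**
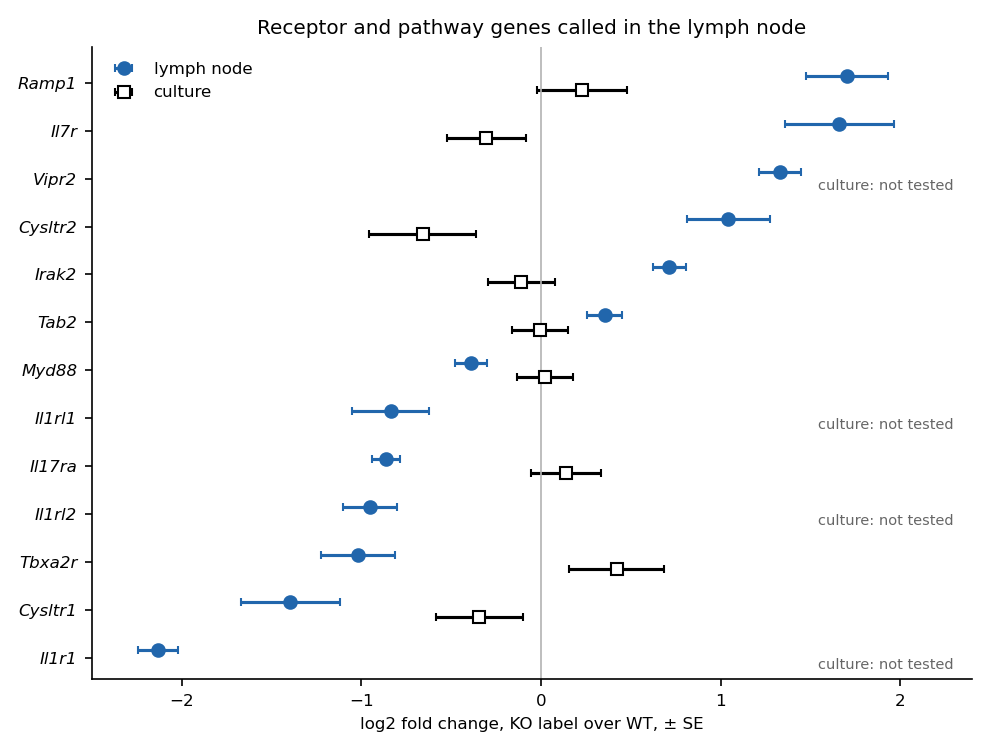
Log2 fold change, knockout label over wild type (x axis, with SE), of each member and each further pathway gene called in the lymph node (y axis), with filled circles for lymph node and open squares for culture. Il1r1 at -2.13 is the lowest and Ramp1 the highest in the lymph node. No gene passed in culture, where Il1rl1, Il1r1, Il1rl2 and Vipr2 were not tested.

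Of the 50 further pathway genes, 33 were tested in lymph node OTII cells, and 6 rose, 5 fell and 22 did not pass (median log2 fold change 0.04, against 0.02 over all genes). Il1r1, the signalling receptor of IL-1, which uses the same partner and adaptor as ST2, had the lowest value. It stood at 0.0598, 0.165, 0.055 and 0.0664 in knockout-labelled libraries, against 4.00, 3.50 and 3.79 in wild type (log2 fold change -2.13, SE 0.11, limma adjusted p = 1.04e-05). On the reads, 6 to 20 per knockout-labelled library against 351 to 395 in wild type, voom gave -5.48. Il7r rose to 48.9, 89.8, 40.9 and 41.9, against 10.3, 18.0 and 21.5 (log2 fold change 1.66, SE 0.30, limma adjusted p = 0.00633); it was picked with its values in view, as the partner of Crlf2. In these libraries the basophil and mast cell markers summed to 0.175 to 0.773 with the knockout label and to 2.37 to 2.77 in wild type, with Mcpt8, Fcer1a and Ms4a2 at 0. The 1 marker tested, the histidine decarboxylase gene Hdc, fell; its part in the changes was not tested.

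In culture no gene passed at all (0% rose and 0% fell of 10968 genes tested with limma; 256 had an unadjusted p under 0.05, and voom called 2). Il1rl1 had 11 and 5 reads in knockout-labelled cultures, against 9 and 7 in wild type, and was below the filter. Vipr1 stood at 7.14 and 5.86 in knockout-labelled cultures, against 3.02 and 3.61 in wild type, without overlap (log2 fold change 0.80, SE 0.19, limma adjusted p = 0.983, from an unadjusted limma p of 0.00296). Il17rb stood at 11.2 and 13.1, against 13.2 and 13.2 (log2 fold change -0.11, SE 0.16, limma adjusted p of 1), and Myd88 at 45.0 and 39.5, against 39.8 and 43.3 (log2 fold change 0.02, SE 0.16). Crlf2 stood at 51.9 and 43.4, against 30.5 and 54.0, and Il1rap at 1.84 and 2.09, against 2.79 and 1.38. Notch1 itself, at 4.23 and 1.06 against 26.3 and 29.4, did not pass in these 4 libraries (log2 fold change -3.14, SE 0.38, limma adjusted p = 0.333), so a gene that misses the threshold here may still differ. Of the 34 further pathway genes tested none passed (median log2 fold change -0.01, against 0.00 over all genes).

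The effect of the knockout label differed between lymph node and culture for 1 member, Vipr1. The difference of its log2 fold changes, lymph node minus culture, was -1.15 (SE 0.22, limma adjusted p = 0.0146), from -0.36 in the lymph node and 0.80 in culture. The call was lost without wild type culture 1 or knockout-labelled culture 1 (highest adjusted p = 0.0785). For Il1rl1 the difference was -0.84 (SE 0.32, limma adjusted p = 0.196) and for Il17rb 0.78 (SE 0.32, adjusted p = 0.228), and neither passed. Over all 11508 genes tested 270 (2.35%) had a positive and 172 (1.49%) a negative difference past the threshold, against 0 and 1 of 6 members. Of 37 further pathway genes 2 were positive and 2 negative (median 0.07, against 0.02 over all genes). Vipr2 was positive (1.13, SE 0.19, limma adjusted p = 0.00719; 2.06 with voom, where it did not pass). Il1r1 (-1.91, SE 0.22, limma adjusted p = 8.83e-04; -4.85 with voom) and Il17ra (-1.01, SE 0.18, limma adjusted p = 0.0114) were negative, and the call of Il17ra was lost without knockout-labelled culture 1 (adjusted p = 0.0539).

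**Figure D5:**
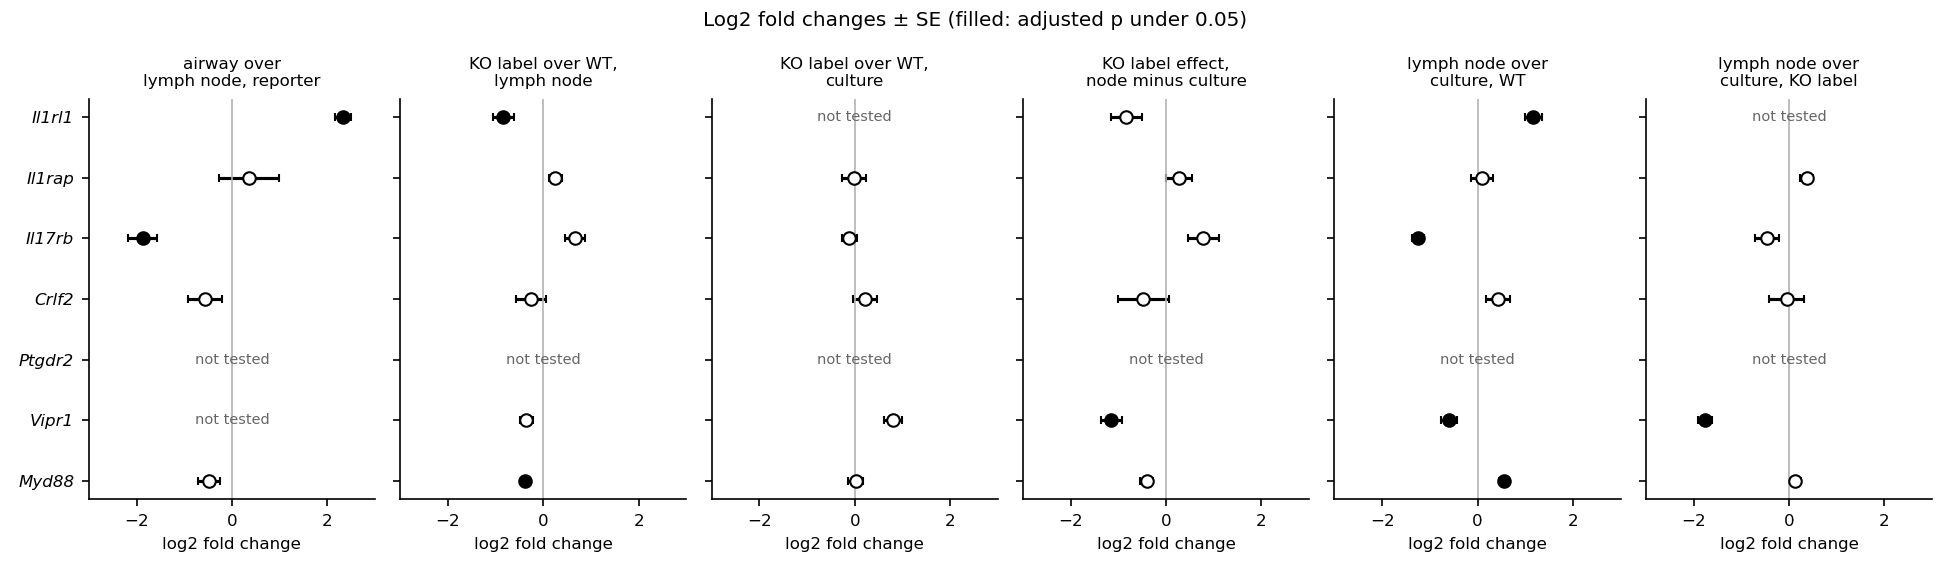
Log2 fold change with SE (x axis) of each of the 7 genes (y axis) in the 6 comparisons, 1 panel each; filled points have an adjusted p under 0.05. Il1rl1 is filled in 3 panels, at 2.32, -0.84 and 1.17, and is not tested in 2.

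Lymph node cells against cultured cells of the same genotype set Th2 cells from the inflamed mouse beside cells made in the dish. These 2 comparisons share their libraries with the knockout comparisons above. In wild type cells, Il1rl1 stood at 1.04, 1.40 and 1.89 in the lymph node, against 0.0857 and 0.0657 in culture. The lymph node mean was 19.1 times the culture mean, the log2 fold change was 1.17 (SE 0.18, limma adjusted p = 0.00305), and voom on 101 to 217 reads against 7 to 9 gave 4.16. Il17rb again went the other way, at 5.63, 4.61 and 4.83, against 13.2 and 13.2 (log2 fold change -1.24, SE 0.13, limma adjusted p = 3.82e-04). Both kept their calls with any 1 of these libraries left out.

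Myd88 rose to 62.0, 61.8 and 59.4 in wild type lymph node cells, against 39.8 and 43.3 in culture (log2 fold change 0.55, SE 0.10, limma adjusted p = 0.00527). Vipr1 fell to 1.58, 1.62 and 2.35, against 3.02 and 3.61 (log2 fold change -0.61, SE 0.17, limma adjusted p = 0.0307), a call lost without lymph node replicate 1 or 2, without either culture (highest adjusted p = 0.0969) and without the filter on low values (adjusted p = 0.0687). Crlf2 (log2 fold change 0.43, SE 0.25, limma adjusted p = 0.225) and Il1rap (0.10, SE 0.22, adjusted p = 0.767) did not pass. Over all 11108 genes tested 1502 (13.5%) rose and 1946 (17.5%) fell, against 2 and 2 of 6 members.

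Among the further pathway genes 5 of 36 rose and 10 fell in wild type lymph node cells (median log2 fold change -0.09, against -0.03 over all genes). Il1r2, a decoy receptor that binds IL-1 without signalling, had the smallest p and stood at 0.942, 1.68 and 1.35, against 14.4 and 16.2 (log2 fold change -2.82, SE 0.17, limma adjusted p = 4.51e-05). Il1rl2, the IL-36 receptor gene, rose to 3.47, 3.74 and 4.32, against 0.417 and 0.665 (log2 fold change 1.65, SE 0.15, limma adjusted p = 2.63e-04). Il7r fell to 10.3, 18.0 and 21.5, against 116 and 97.5 (log2 fold change -2.67, SE 0.27, limma adjusted p = 3.69e-04).

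In knockout-labelled cells Vipr1 was the 1 member called between lymph node and culture. It stood at 1.47, 1.20, 0.969 and 1.22 in the lymph node, against 7.14 and 5.86 in culture (log2 fold change -1.76, SE 0.15, limma adjusted p = 9.86e-05). Il17rb overlapped between the groups and was not called (log2 fold change -0.47, SE 0.25, limma adjusted p = 0.211), and neither did Il1rap (0.37, SE 0.15, adjusted p = 0.0939), Myd88 (0.14, SE 0.12, adjusted p = 0.436) or Crlf2 (-0.05, SE 0.37, adjusted p = 0.938). Il1rl1, at 17, 132, 22 and 24 reads against 11 and 5, was below the filter, though all 4 lymph node libraries were above both cultures in scaled RPKM. Over all 11227 genes tested 1537 (13.7%) rose and 1714 (15.3%) fell, against 0 and 1 of 5 members. Of 35 further pathway genes 8 rose and 7 fell (median log2 fold change -0.01, against -0.02 over all genes). Among those that fell were Il1r2 at 0.286, 0.325, 0.198 and 0.199 against 24.6 and 9.64 (log2 fold change -3.72, SE 0.30, limma adjusted p = 7.92e-05), Cysltr1, a cysteinyl leukotriene receptor gene, at -3.15 (SE 0.29, adjusted p = 1.52e-04) and Il17ra at -1.12 (SE 0.10, adjusted p = 1.59e-04).

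Across the 6 groups the members ranked differently. The means of Il1rl1 ran in the order airway, lymph node reporter, wild type lymph node, knockout-labelled lymph node and the 2 cultures, and only the cultures overlapped as neighbours. Il17rb ran lymph node reporter, airway, wild type culture, knockout-labelled culture, knockout-labelled lymph node and wild type lymph node, and each of the last 3 overlapped its neighbour. Crlf2 had its higher means in the OTII groups (42.2 to 55.8), against 17.2 in airway and 25.0 in lymph node reporter cells, and the 4 OTII groups overlapped in turn. Myd88 was highest in lymph node reporter cells at 93.8 ± 10.0, which overlapped with the airway at 68.6 ± 20.8 (SD, n = 3 each). Vipr1 was highest in knockout-labelled cultures at 6.50 ± 0.908 (SD, n = 2). These orders across reporter and OTII cells are descriptions of levels and were not tested.

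Genes whose levels ran most like a member were sought after centring each gene within reporter and within OTII libraries, over all 17 libraries, with the groups' own differences left in. Predicted genes, receptor segments, histone genes and pseudogenes were left out of the search. For Il1rl1 these were Ssh2 (r = 0.955), Ms4a6d (0.919), Fas (0.895), Btg1 (0.889) and Mkrn2 (0.881). Ssh2 encodes a cofilin phosphatase, Fas a death receptor and Ms4a6d a membrane protein known from myeloid cells; Ms4a6d averaged 24.7 in airway and 3.13 in lymph node reporter cells, beside the macrophage markers given above. For Il17rb they were Zwint (0.926), Gsn (0.902) and the microRNA gene Mir5114 (0.885), for Crlf2 Tmem258 (0.901), Ccdc12 (0.899) and Mrps21 (0.881), and for Myd88 Foxn3 (0.934), Rrp1b (0.910) and Atp5g1 (0.909). Zwint encodes a kinetochore protein and Gsn the actin-severing protein gelsolin. Il1rap, Ptgdr2 and Vipr1, with a mean under 5, were not used for this search, and the values of r describe these libraries only.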

How the data were processed

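Smart-seq2 RNA-seq tables of 17 libraries were used. The authors deposited RPKM for 24537 genes per library, each gene under 1 RefSeq transcript on mm10; HISAT2 2.0.4, HOMER and DESeq2 are named per the submitters' processing notes, and strand use and filters are not given in the sources used here. All 7 members had the same transcript in all 17 tables. For 1644 other genes the transcript differed between reporter and OTII libraries, and these were not left out of the scaling. Low RPKM values times length were whole multiples of 1 read (tolerance 0.1 reads, checked below 100 reads), which gave 16.3 to 27.5 M reads per library. RPKM was scaled by median of ratios over the 6796 genes at 1 or more in all libraries. Each comparison used the libraries of its own groups in a two-sided limma 3.58.1 fit (lmFit, eBayes with trend) of log2(scaled RPKM + 1) under R 4.3.3, with p-values adjusted by Benjamini-Hochberg over every gene in the fit and calls at 0.05. The filter on low values kept genes that reached a scaled RPKM of 1 in a number of libraries equal to the size of the smaller group. Rose and fell are kept for calls. Alternatives were RPKM as deposited, a pseudocount of 0.1, no filter, voom on the reads, a replicate block, all 11 OTII libraries in 1 fit, and each library left out. The fits were also run on simulated data, with a common spread for all genes and low means raised. That run therefore does not cover genes at low levels or groups of unequal spread. The members, the lists and the rule for named genes (all members; the up to 3 called pathway genes with the smallest p per comparison; Notch1, Notch2, Gata3 and Il4; the genes most alike by r, 5 for Il1rl1 and 3 for others, among genes with a mean of at least 5) were chosen with earlier results of these data known. Promoter windows are RefSeq's (GRCm38.p6), cut to the 250 bases before the start, and gene overlaps are GENCODE's (M21). Of the T cell markers Trac was not used. The B cell, regulatory T cell and epithelial lists were summed too, giving 3.72 to 54.8, 109 to 484 and 0 to 12.8 over the libraries, and the Th2 list (Gata3, Il4, Il5 and Il13) gave 55.6 to 1360.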

Additional observations from a re-analysis of the deposited data

Results flagged for a closer look

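In the 4 knockout-labelled lymph node libraries, replicate 2 stood apart from the others in Il1rl1, at 0.983 against 0.154 to 0.241; its gap to the next library was 0.895 of the group's range. The same share was 0.896 for Il1r1, 0.851 for Cysltr1 and 0.836 for Il7r, each with replicate 2 highest and each above Dixon's critical value for 4 samples at the 95% level. Of 15 genes examined in this group 4 stood apart. All were read from the same 4 libraries, and some were named for their small p, so the count cannot be set against a chance rate. The Il1r1 levels rest on 6 to 20 reads per library. Replicate 2 was also the lowest in Crlf2 (23.3, against 46.8 to 66.4), though not past that value, and it was the deepest library at 27.5 M reads. Without it the log2 fold change of Il1rl1 in the lymph node was -1.02, against -0.84 with it.

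Among the members and the pathway genes named for it, the effect of the knockout label differed between lymph node and culture for 1 member, Vipr1 (lymph node minus culture -1.15 on the log2 scale). It also differed for Il1r1 (-1.91), Vipr2 (1.13) and Il17ra (-1.01), each by limma's test of the difference. The calls of Vipr1 and Il17ra were lost without knockout-labelled culture 1, and that of Vipr1 also without wild type culture 1. Vipr2 did not pass with voom. Il1r1 and Vipr2 were below the filter in the culture comparison.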

How the results depend on the processing

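Il1rl1, Il17rb and Vipr1 kept their direction under every setting tried, in each comparison in which they were tested. Over members in those comparisons, and pathway genes in the comparisons for which the text names them, 572 of 623 alternative values kept direction and side of the threshold, 33 were no longer past it, 6 came past it and 12 changed sign, all 12 in Il1rap, Crlf2 or Myd88 where these had not passed. With 1 library left out, Il1rap ran from -0.045 to 0.831 (log2) in the airway, -0.354 to 0.316 for the knockout label in culture (0.003 with voom), -0.062 to 0.608 for lymph node minus culture and -0.239 to 0.432 for wild type lymph node against culture. Crlf2 ran from -0.433 to 0.057 for the knockout label in the lymph node, -0.183 to 0.622 in culture and -0.221 to 0.269 for knockout-labelled lymph node against culture, and Myd88 from -0.068 to 0.113 for the knockout label in culture.

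With 1 library left out, members called ran from 1 to 2 in the airway, 0 to 2 for the knockout label in the lymph node and 0 to 2 for lymph node minus culture. Genes called ran from 113 (without lymph node replicate 3) to 554 in the airway, 1008 (without wild type replicate 2) to 2716 (without knockout-labelled replicate 2) for the knockout label in the lymph node, 0 to 65 in culture, and 195 to 555 for lymph node minus culture. Lymph node against culture ran from 2194 to 4363 in wild type and 1703 to 4235 with the knockout label. Without the filter the airway gave 1 member and 224 genes, and with voom 244 genes. In culture voom gave 2 genes and the fit of all 11 OTII libraries 1. The cause was not tested.

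Libraries of different groups with the same number in their sample titles gave r = -0.323 to 0.333, and in no comparison was every pair above 0.1. With so few libraries per group this cannot exclude pairing, and pairing by the numbers in the file headers was not checked. The title numbers were taken as names, and the main fits used no pairing. The replicate block used the title numbers, which differ from the header numbers in lymph node OTII libraries. With a replicate block, members called were 0 for the knockout label in the lymph node (Il1rl1 and Myd88 lost), 0 for lymph node minus culture (Vipr1 lost) and 2 for knockout-labelled lymph node against culture (Il17rb gained). Genes called under the replicate block were 636, 166 and 1932 there and 65 for the knockout label in culture, where crossed numbers, tried after seeing r = -0.191, gave 8. File headers give each lymph node OTII library 2 numbers, and libraries with the same first number may share a source. Averaged by it, an alternative added after seeing the headers, lymph node minus culture gave 257 genes, and all members called in the comparisons with those libraries were called again.

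Some values rest on few reads: Ptgdr2 had 0 to 50 in all libraries, Il1rl1 5 to 11 in culture, and Vipr1 0, 0 and 6 in the airway, against 0, 189 and 216 in lymph node reporter cells. Whether depth limits them was not tested. Of 42 group means 7 moved by more than 1 SD with RPKM as deposited.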
